A study of Mus musculus with 11 samples.

Results

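The transcripts of the mouse Fc gamma receptors, of their signalling adaptors and of 2 related genes were followed in scarred and healthy kidney and lung. The set held 8 genes: the activating receptors Fcgr1, Fcgr3 and Fcgr4, the inhibitory receptor Fcgr2b, the adaptors Fcer1g and Tyrobp, the Fc receptor-like protein Fcrls and the neonatal Fc receptor Fcgrt. It was taken as every probe whose symbol in the platform annotation is one of these names, which gave 15 probes of the 45281 on the array, and 8 of the 19057 genes that a probe with a single symbol represents. The genes were chosen from an earlier look at these same arrays, in which Fcgr3 and Fcrls stood out in the kidney and Fcgr2b in the lung. Their fibrosis changes are therefore given as a description, with a standard error and without a p-value. RNA came from whole organs of adult mice of the BALB/C strain, each labelled female. Of the 4 groups, the untreated ones were kidney (n = 3) and lung (n = 3), which by their titles came from the same 3 mice. The kidney fibrosis group had undergone unilateral ureter obstruction (UUO), which blocks the outflow of urine (n = 2). The lung fibrosis group had received bleomycin, an epithelium-injuring drug, through the trachea (n = 3). The sources used here give no time after injury, no sham operation and no vehicle control. They also do not say whether the kidney taken was the obstructed one, so "UUO kidney" below means a kidney of this group.

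Fc gamma receptors bind the constant part of IgG and let macrophages, monocytes, neutrophils and other leucocytes respond to antibody-coated targets. The activating receptors signal through the common gamma chain encoded by Fcer1g, whose immunoreceptor tyrosine-based activation motif (ITAM) recruits the kinase Syk. Fcgr2b carries an inhibitory motif of its own, recruits the phosphatase encoded by Inpp5d and sets a threshold on the activating receptors. In mice Fcgr2b is also known from endothelium, including that of liver sinusoids. Tyrobp is the ITAM adaptor of Trem2 and related myeloid receptors. Fcrls is a mouse protein of the Fc receptor-like family, best known as a transcript of microglia. Fcgrt pairs with B2m and protects IgG and albumin from breakdown in endothelium, myeloid cells and kidney and lung epithelium.

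Raw median intensity lay between 95.2 and 125.1 per array, and 17036 to 21504 probes per array were above background, meaning a detection p-value under 0.05. Levels below are log2 intensities after background correction and quantile normalisation, and 12865 genes were tested, 7 of them from the set. Over the genes tested, healthy lung replicate 3 correlated at 0.93 and 0.94 with healthy lung replicates 1 and 2. Those 2 correlated at 0.99 with each other. Several libraries did not match their labels. The Y-linked transcript Eif2s3y lay between 9.06 and 9.75 in the 6 healthy organs and at 9.78 and 9.76 in bleomycin lung replicates 1 and 2, although every mouse is labelled female. It was not above background in either UUO kidney or in bleomycin lung replicate 3. Xist, transcribed from the inactive X chromosome, was at 10.83 and 10.56 in the UUO kidneys and at 9.03 in that lung. In the kidney this difference coincides with the disease groups, so the 2 cannot be told apart. The UUO kidneys also held lung transcripts that were not above background in any healthy kidney: Scgb1a1, a club cell product, was at 12.48 and 11.35, and Sftpc, a surfactant protein gene, at 9.22 and 7.75. Both UUO arrays carried them, so no kidney result could be given without them, and their part in the kidney results was not tested.

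The 250 bases before the RefSeq start of 5 of the genes are shown because the activating receptors, Fcgr2b and Fcrls behaved differently below. They are read 5′ to 3′ along the gene, in build GRCm38.p6, at chr3:96293970-96294219 (minus strand) for Fcgr1, chr1:171059404-171059653 (minus strand) for Fcgr3, chr1:171018676-171018925 (plus strand) for Fcgr4, chr1:170976072-170976321 (minus strand) for Fcgr2b and chr3:87263525-87263774 (minus strand) for Fcrls. Capitals mark 2 motifs searched on both strands: GAGGAA, the core of sites for the myeloid factor PU.1, which reads TTCCTC on the opposite strand, and TTCNNNGAA, the interferon gamma-activated (GAS) type.
Fcgr1: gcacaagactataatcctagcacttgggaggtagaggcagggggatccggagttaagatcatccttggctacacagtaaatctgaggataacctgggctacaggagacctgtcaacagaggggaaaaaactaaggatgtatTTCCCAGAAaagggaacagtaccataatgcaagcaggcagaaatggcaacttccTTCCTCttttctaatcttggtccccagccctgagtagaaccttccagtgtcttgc
Fcgr3: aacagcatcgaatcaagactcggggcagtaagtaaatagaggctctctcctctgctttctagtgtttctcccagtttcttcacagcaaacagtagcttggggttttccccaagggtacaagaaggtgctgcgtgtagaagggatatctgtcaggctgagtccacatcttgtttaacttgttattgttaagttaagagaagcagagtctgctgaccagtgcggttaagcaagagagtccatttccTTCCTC
Fcgr4: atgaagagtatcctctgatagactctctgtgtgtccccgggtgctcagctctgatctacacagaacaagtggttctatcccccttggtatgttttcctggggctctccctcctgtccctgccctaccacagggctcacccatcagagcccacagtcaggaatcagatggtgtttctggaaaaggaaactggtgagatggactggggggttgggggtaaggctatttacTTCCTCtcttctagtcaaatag
Fcgr2b: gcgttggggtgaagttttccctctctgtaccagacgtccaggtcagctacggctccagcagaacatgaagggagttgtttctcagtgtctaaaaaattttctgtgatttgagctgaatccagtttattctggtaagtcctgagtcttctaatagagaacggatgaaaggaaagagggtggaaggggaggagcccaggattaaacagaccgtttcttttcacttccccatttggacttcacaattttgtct
Fcrls: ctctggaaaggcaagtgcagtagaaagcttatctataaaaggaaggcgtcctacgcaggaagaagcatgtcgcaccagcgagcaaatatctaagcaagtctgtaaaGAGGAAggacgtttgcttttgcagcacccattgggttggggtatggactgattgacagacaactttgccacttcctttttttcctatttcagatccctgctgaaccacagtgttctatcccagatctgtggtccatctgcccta
GAGGAA was present in Fcgr1, Fcgr3, Fcgr4 and Fcrls and absent from these windows of Fcgr2b, Fcer1g and Fcgrt, and 23.3% of the 32851 windows in the RefSeq table held it. TTCNNNGAA was found in Fcgr1, and in 7.02% of all windows. The matches did not overlap each other. For Fcgr3 the table lists a second start 9 bases away, whose window holds the same match. In the RefSeq order of coding genes on chromosome 1, Fcgr2b, Fcgr4 and Fcgr3 follow one another directly.

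All 3 activating receptors were at higher levels in both scarred organs than in the healthy ones. Fcgr3, a low-affinity receptor of macrophages, neutrophils and natural killer cells, had levels of 6.18, 6.14 and 5.82 in the healthy kidneys and 9.77 and 10.84 in the UUO kidneys. Its levels were 9.07, 8.93 and 8.80 in the healthy lungs and 11.81, 11.41 and 11.59 after bleomycin. The 4 groups did not overlap and were ordered from healthy kidney through healthy lung and UUO kidney to bleomycin lung. The log2 difference was 4.26 ± 0.28 (SE) in the kidney, 19.2-fold, and 2.67 ± 0.25 in the lung, 6.37-fold. In whole tissue, a change in the number of cells of a type and a change in RNA per cell cannot be told apart.

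Fcgr4, a mouse activating receptor of monocytes, macrophages and neutrophils, had levels of 7.05, 7.12 and 7.71 in healthy kidney and 10.15 and 10.81 after UUO. In the lung it was at 9.00, 8.76 and 8.87 in healthy mice and at 9.97, 10.08 and 9.80 after bleomycin. The scarred organs thus stood in another order than for Fcgr3: the UUO kidneys were the highest of all, although only 0.07 above the nearest bleomycin lung. The log2 difference was 3.19 ± 0.24 in the kidney, 9.11-fold, and 1.07 ± 0.22 in the lung, 2.10-fold.

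The probe of Fcgr1, the high-affinity receptor of monocytes and macrophages, read close to background in healthy organs. It was not above background in any healthy kidney, where its probe read 4.72, 4.57 and 4.54, and was at 6.50 and 7.24 in the UUO kidneys. It was above background in 1 of 3 healthy lungs, at 4.46, 5.24 and 4.94, and in all 3 bleomycin lungs, at 7.29, 6.33 and 6.44. The scarred organs overlapped each other, as did the healthy ones. The UUO kidneys were at least 2.93-fold higher than the healthy kidneys, a bound that sets each healthy array at its lowest detected signal; it stood between 2.27 and 3.77 with 1 array left out. In the lung the log2 difference was 1.81 ± 0.29, 3.50-fold.

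**Figure D1:**
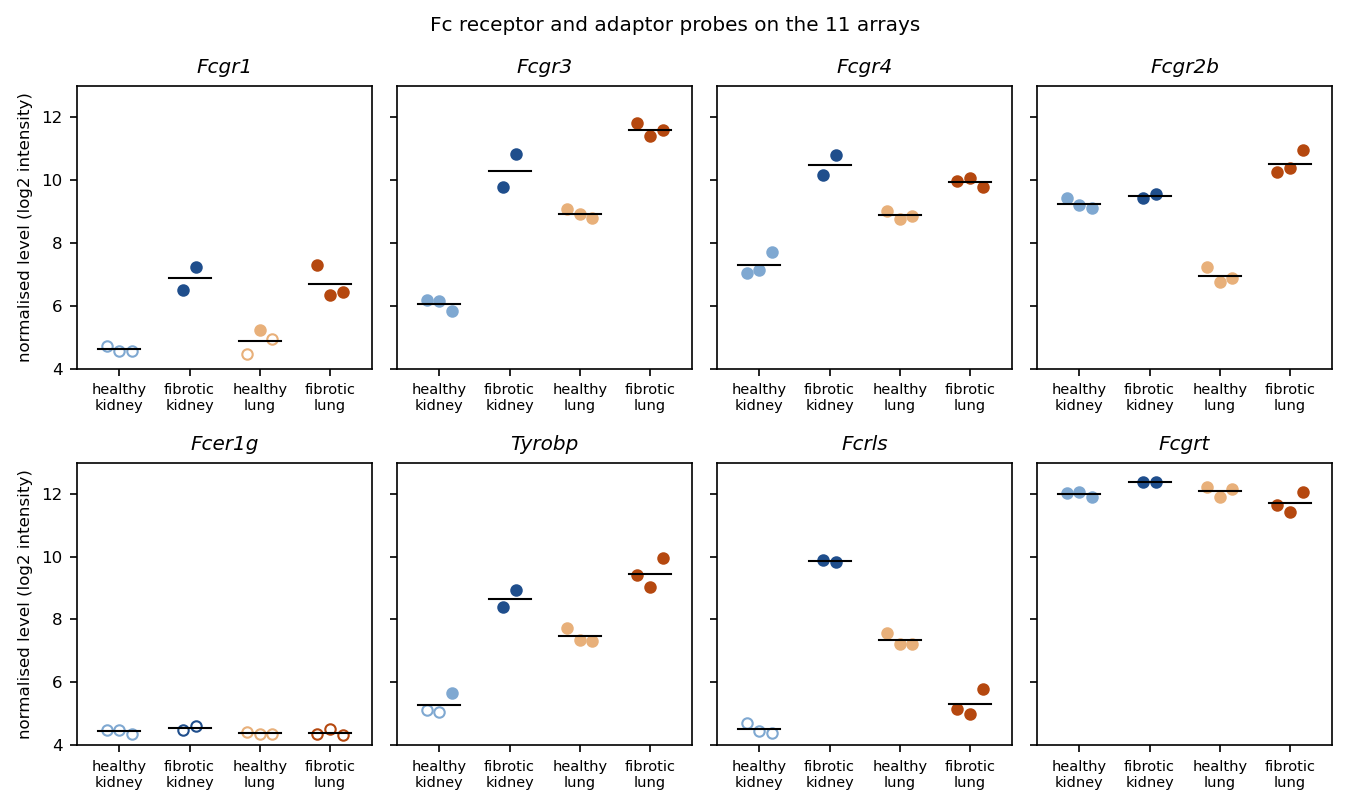
Normalised log2 intensity of the probe that represents each gene on the 11 arrays, by group; each point is an array, open points are not above background, and bars are group means. Fcgr3, Fcgr4 and Tyrobp are higher in both scarred organs, Fcgr2b is lowest in healthy and highest in bleomycin lungs, and Fcrls is highest in UUO kidneys and lowest in healthy kidneys.

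Fcgr2b, the inhibitory receptor, showed another pattern. It was at 9.44, 9.22 and 9.10 in healthy kidneys and at 9.43 and 9.55 in UUO kidneys, and these groups overlapped. In the lung it was at 7.22, 6.77 and 6.88 in healthy mice and at 10.25, 10.38 and 10.96 after bleomycin. The healthy lungs were thus the lowest of the 4 groups and the bleomycin lungs the highest. The log2 difference was 0.24 ± 0.23 in the kidney and 3.57 ± 0.20 in the lung, 11.9-fold. In the lung this difference ranked 30 of 12865 genes, counted from the highest.

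Fcgr2b had 5 probes, of which 3 were above background on at least 2 arrays. The second, ILMN_3102376, had a log2 difference of 0.53 in the kidney and 3.37 in the lung, close to the probe described above. The dim probe ILMN_3029178 differed from both, with -0.51 in the kidney and 0.02 in the lung. The other 2 were above background on none of the 11 arrays. The platform annotation lists the same transcript for ILMN_3102376 and ILMN_3029178, and another for the probe described above. Probe sequences were not used here, so which transcript forms the probes read, and whether any reads a neighbouring receptor, was not checked. Over the alternatives the lung difference of the gene lay between 2.32 and 4.12.

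The adaptor Tyrobp was also higher in both scarred organs. It was above background in 1 of 3 healthy kidneys, at 5.13, 5.04 and 5.66, and was at 8.39 and 8.93 in the UUO kidneys. In the lung it was at 7.74, 7.34 and 7.32 in healthy mice and at 9.40, 9.03 and 9.95 after bleomycin. Healthy and scarred arrays of an organ did not overlap, while the lowest bleomycin lung was only 0.10 above the highest UUO kidney. The log2 difference was 3.39 ± 0.30 in the kidney and 1.99 ± 0.26 in the lung, 3.98-fold. The single probe of the other adaptor, Fcer1g, was not above background on any of the 11 arrays, with readings from 4.33 to 4.60, so the common gamma chain has no measured level here.

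Fcrls differed in opposite directions in the 2 organs. On the healthy kidney arrays it was not above background, at 4.69, 4.43 and 4.37, and was at 9.88 and 9.82 in the UUO kidneys. In the lung it was at 7.57, 7.22 and 7.21 in healthy mice and at 5.14, 4.98 and 5.79 after bleomycin. No group overlapped another, and the UUO kidneys were above every lung array. They were at least 23.1-fold higher than the healthy kidneys. The bleomycin lungs were 4.09-fold lower than the healthy lungs, a log2 difference of -2.03 ± 0.21. Bleomycin lung replicates 1 and 2 were close to the lowest detected signals of their arrays, 4.87 and 4.95. With no background correction the lung difference was -0.87. The UUO kidneys also held Scgb1a1 and Sftpc, at lower levels than on every lung array. The part of these lung transcripts in the Fcrls difference was not tested.

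A second Fcrls probe, ILMN_2831436, went the same ways. It was at least 12.7-fold higher in the UUO than in the healthy kidneys, and its log2 difference in the lung was -1.47. It was above background in only 1 of 3 bleomycin lungs. The remaining probe was above background on no array. With bleomycin lung replicate 3 left out, whose Xist and Eif2s3y levels set it apart from the others of its group, the lung difference of Fcrls was -2.25, that of Fcgr2b 3.38, that of Fcgr3 2.69, that of Fcgr4 1.15, that of Fcgr1 1.90 and that of Tyrobp 1.76.

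**Figure D2:**
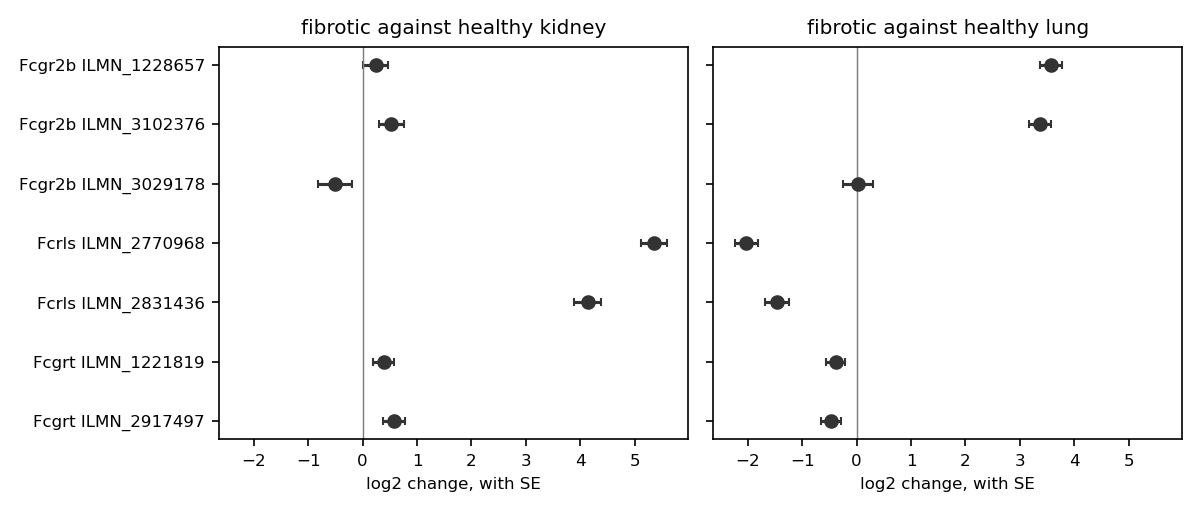
Log2 difference between scarred and healthy organ for each probe above background on at least 2 arrays, for the genes with several such probes; bars are standard errors of the fit, left for kidney and right for lung. Both Fcrls probes lie on opposite sides of 0 in the organs, and the dim Fcgr2b probe lacks the lung difference of the other two.

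Fcgrt differed little. It was at 12.03, 12.06 and 11.90 in healthy kidneys, 12.39 and 12.37 in UUO kidneys, 12.22, 11.90 and 12.14 in healthy lungs and 11.66, 11.41 and 12.05 after bleomycin. Apart from the UUO kidneys, which were above the rest, the groups overlapped. The log2 difference was 0.38 ± 0.19 in the kidney and -0.38 ± 0.17 in the lung. These signs held relative to the median of all genes under the other scalings, but in absolute terms the lung difference was 0.01 with a common median per array, and both signs turned with the authors' processed intensities. The second Fcgrt probe gave 0.57 and -0.48.

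Over the set, 5 of the 7 genes in the fit were past an adjusted p of 0.05 in the kidney, all higher, beside 38.8% of all genes, 23.2% higher and 15.6% lower. In the lung 5 were higher and 1 lower, beside 37.8% of all genes, 18.9% higher and 18.9% lower. The split of all genes depended on the scaling: of the genes called, 59.8% were higher in the kidney and 50.1% in the lung, 77.1% and 75.9% with a common median per array, and 32.1% and 88.0% with the authors' processed intensities. Healthy and scarred arrays did not overlap for 6 of 7 genes in the kidney, where 60.6% of all genes did not, and for 6 of 7 in the lung, where 52.9% did not. The median log2 difference of the set was 3.19 in the kidney and 1.81 in the lung, and that of all genes was 0.10 and -0.03. Since the set was chosen on these contrasts, the counts describe it and support nothing further.

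**Figure D3:**
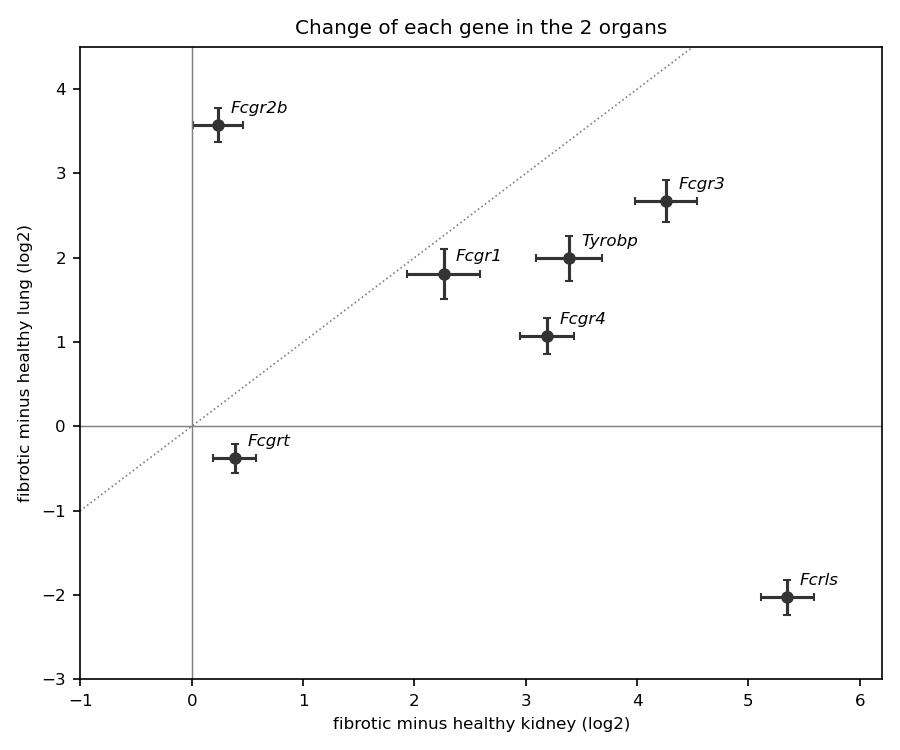
Log2 difference between scarred and healthy kidney (horizontal axis) and between scarred and healthy lung (vertical axis) for the 7 genes tested. Bars are standard errors of the fit, and the dotted line marks equal differences. Fcgr2b lies far above the line, Fcrls far below it and below 0 on the lung axis, and Fcgr1 nearest to the line. The kidney values of Fcrls and Fcgr1 are fitted against healthy kidneys in which neither was above background.

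The change in the kidney was then set against that in the lung. Both fibrosis comparisons enter this difference, so it is a description for every member, without a p-value. In the fit 5 of 7 genes were past the threshold with the larger change in the kidney and 1 with the smaller, beside 40.0% of all genes, 23.9% larger and 16.2% smaller, and nothing is read from this count. Of all genes called, 59.6% had the larger kidney change, 55.7% with a common median and 14.3% with the authors' processed intensities. The kidney change was larger by 2.12 ± 0.33 on the log2 scale for Fcgr4 and by 1.59 ± 0.37 for Fcgr3, and smaller for Fcgr2b, at -3.33 ± 0.30. The difference for Fcgr3 was 0.55 with no background correction and 0.86 with the authors' processed intensities. For Fcrls it was at least 6.56, with the healthy kidneys at their lowest detected signal; the fitted value was 7.38, and 3.95 with no background correction. For Tyrobp it was 1.39 ± 0.40, but 0.29 with no background correction, 0.43 with the authors' processed intensities and 0.78 with an offset of 50. For Fcgrt it was 0.76 ± 0.26, 0.45 with a common median and -0.31 with the authors' processed intensities, so that its direction depended on the scaling. For Fcgr1 the kidney change is only bounded, at 1.55 or more, beside 1.81 in the lung, so the order of the changes is not settled.

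The levels of the activating receptors were also set against Fcgr2b on the same array. Since Fcgr3 was chosen for the kidney and Fcgr2b for the lung, these ratios restate that choice and are no further evidence. Relative to the healthy mean of the organ, the log2 ratio of Fcgr3 to Fcgr2b was 3.54 and 4.51 in the UUO kidneys and lay between -1.35 and -0.42 in the bleomycin lungs. That of Fcgr4 was 2.68 and 3.22 in the kidneys and between -3.08 and -2.20 in the lungs. That of Fcgr1 was at least 1.31 on average in the kidneys, and its mean was -1.76 in the lungs, where it was above background on 1 of 3 healthy arrays. For Fcgr3 and Fcgr4 every UUO array lay above and every bleomycin array below the organ's healthy arrays. These are ratios of differences within an array, not of amounts, since levels of different probes cannot be compared.

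**Figure D4:**
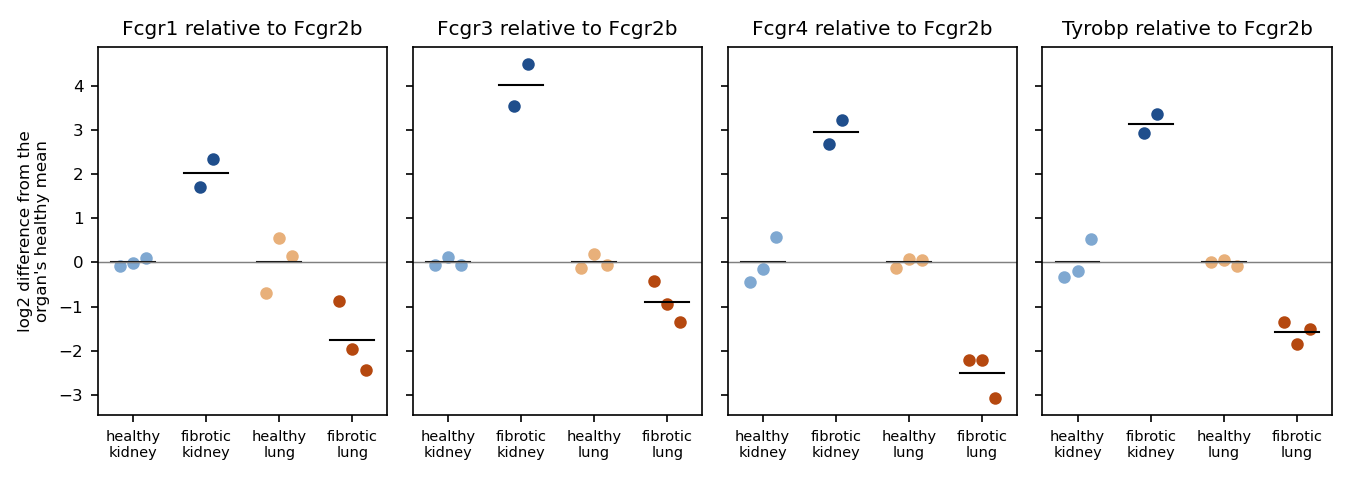
Log2 level of Fcgr1, Fcgr3, Fcgr4 and Tyrobp minus that of Fcgr2b on the same array, set to a mean of 0 over the healthy arrays of each organ; points are arrays and bars are group means. UUO kidneys lie above 0 and bleomycin lungs below 0 in all 4 panels. None of the healthy kidneys had Fcgr1 above background.

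The healthy organs themselves differed in 5 of the 7 genes, 1 higher and 4 lower in kidney, beside 61.6% of all genes, 28.2% higher and 33.5% lower. Of the genes called, 45.7% were higher in kidney, 37.1% with a common median and 67.6% with the authors' processed intensities. The arrays did not overlap for 5 of 7, beside 69.7% of all genes. This comparison was not itself used to choose the genes, but it shares the healthy arrays with the fibrosis comparisons that were. Low healthy levels of Fcgr3 and Fcrls in the kidney and of Fcgr2b in the lung favour that choice. The p-values below are therefore not independent of it. Fcgr2b was higher in kidney by 2.29 ± 0.20 on the log2 scale, 4.91-fold, in all 3 kidneys (limma, adjusted p = 4.2e-06). Fcgr3 was lower in kidney by 7.41-fold (limma, adjusted p = 3.4e-06) and Fcgr4 by 2.99-fold (limma, adjusted p = 0.0001). Tyrobp was lower by 4.57-fold (limma, adjusted p = 4.1e-05) and Fcrls by at least 4.03-fold (limma, adjusted p = 1.2e-06). For each of these 4 genes the kidney and lung arrays did not overlap. Fcgrt did not pass the test, with a log2 difference of -0.09 ± 0.17 (limma, adjusted p = 0.677). Fcgr1, above background on 1 of the 6 healthy arrays, did not pass either (limma, adjusted p = 0.452).

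The genes whose levels followed each receptor most closely over the 11 arrays were picked by Pearson r, as a description, since the arrays fall into 4 groups. Nearest to Fcgr3 were Clec4n, an Fcer1g-paired lectin (r = 0.99), the matrix protease gene Mmp14 (0.99) and Ms4a6d (0.99). Nearest to Tyrobp were the collagen gene Col3a1 (0.99), Mmp14 (0.99) and Rps15 (0.99), and nearest to Fcgr4 were Rhou (0.99), Wsb1 (0.99) and Capg (0.99). Fcgr2b and Fcrls had other company: 9330151L19Rik (0.98), Pappa (0.97) and Myo7a (0.97) for Fcgr2b, and Cul7 (0.98), Bhlhb9 (0.98) and the chemokine gene Ccl5 (0.97) for Fcrls. For Fcgr1 they were Esco2 (0.97), Ctsb (0.95) and Dpp3 (0.95), and for Fcgrt Ovca2 (0.94), Faap100 (0.93) and Ing4 (0.91). Within the set r was 0.98 between Fcgr3 and Tyrobp and 0.92 between Fcgr3 and Fcgr4, but 0.36 between Fcgr3 and Fcgr2b and -0.29 between Fcgr2b and Fcrls.

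Of 17 ITAM signalling kinases and adaptors tested, which act downstream of the receptors, 9 rose and 0 fell in the kidney, beside 23.2% and 15.6% of all genes. The median log2 change of the list there was 1.39, or 1.13 with genes not above background in the dimmer group at their bound. In the lung 1 rose and 1 fell, beside 18.9% and 18.9% of all genes, with a median of 0.11. This list and those below were chosen with earlier results of these arrays known. Genes named from them had the 3 smallest p-values of their list in an organ. Their p-values are not independent of these choices and are given as a description. Pik3ap1, a phosphoinositide kinase adaptor, rose by at least 2.33-fold in the UUO kidneys, and Btk, a cytoplasmic kinase, by at least 3.44-fold (limma, adjusted p = 5.6e-05 and 6.1e-05). The kinase subunit gene Pik3cg rose by 2.56 ± 0.31 on the log2 scale (limma, adjusted p = 0.0002). In the lung Lat2, a linker of myeloid and B cells, rose by 0.93 ± 0.22 (limma, adjusted p = 0.0075) and Lat, its T cell counterpart, fell by 1.44 ± 0.21 (limma, adjusted p = 0.0006). Syk itself was not above background in either kidney group and did not pass in the lung, at 0.34 ± 0.13 (limma, adjusted p = 0.071). The lung count depended on the scaling: with the authors' processed intensities, where the median of all genes moved to 0.48, 10 of the 17 rose. The kidney change was larger than the lung change for 9 of the 17 and smaller for 0, and with those intensities for 3 and 5.

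Of 14 inhibitory phosphatases and receptors tested, 8 rose and 0 fell in the kidney, and 2 rose and 0 fell in the lung, with medians of 0.51 and 0.24. The shares of all genes are those given for the ITAM list, and the 2 of 14 in the lung is near them. In the kidney 5 to 9 rose over the alternatives, with 5 without healthy kidney replicate 2 and with the authors' processed intensities. In the UUO kidneys Pilra, an inhibitory receptor, rose by at least 2.90-fold, Dok2, an adaptor that restrains tyrosine kinase signals, by 1.58 ± 0.16 and Sirpa, the inhibitory receptor for Cd47, by 2.20 ± 0.26 on the log2 scale (limma, adjusted p = 5.4e-05, 6.6e-05 and 0.0001). In the bleomycin lungs Lilrb4a rose by 3.78 ± 0.40 and Cd300lf by 2.38 ± 0.30, both inhibitory myeloid receptors (limma, adjusted p = 0.0001 and 0.0003). The phosphatase gene Ptpn11 did not pass there, at 0.38 ± 0.16 (limma, adjusted p = 0.090). In the lung 6 of the 14 rose with a common median and 9 with the authors' processed intensities. Inpp5d, the phosphatase that Fcgr2b recruits, was detected in 1 of 3 healthy kidneys, at 5.60, and was at 6.73 and 7.07 in the UUO kidneys, while healthy lungs (7.34 to 7.78) and bleomycin lungs (7.43 to 8.11) overlapped.

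Of 15 receptors tested that pair with Tyrobp or Fcer1g, 7 rose and 0 fell in the kidney, and 9 rose and 1 fell in the lung, beside the same shares of all genes. In the kidney 4 to 9 rose over the alternatives, with 4 without healthy kidney replicate 1 or 2 or UUO kidney replicate 2. Clec4n rose by at least 8.53-fold in the UUO kidneys, and by 2.82 ± 0.24 on the log2 scale in the bleomycin lungs (limma, adjusted p = 9.9e-06 and 4.4e-05). Trem2, a lipid-sensing receptor of macrophages, rose by at least 3.67-fold and by 3.48 ± 0.26 respectively (limma, adjusted p = 8.0e-05 and 2.5e-05). Siglech, a receptor of plasmacytoid dendritic cells and microglia, rose by at least 2.70-fold in the kidney (limma, adjusted p = 0.0019), and Pira1, an activating receptor of myeloid cells, by 2.13 ± 0.19 in the lung (limma, adjusted p = 4.8e-05).

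Of the 4 subunits of the phagocyte oxidase tested, 2 rose in the kidney and 3 in the lung, beside the same shares of all genes. In both organs 0 fell. Without healthy kidney replicate 1 or UUO kidney replicate 2 the kidney count was 1. Ncf4 rose in both, by 3.63 ± 0.46 in the kidney and 1.70 ± 0.41 in the lung (limma, adjusted p = 0.0002 and 0.0086), and Cyba by 1.03 ± 0.20 in the lung (limma, adjusted p = 0.0031). Rac2, which is also in the ITAM list, rose by 1.43 ± 0.40 in the kidney (limma, adjusted p = 0.017), with an adjusted p of 0.053 and 0.083 without the first and the second UUO kidney and 0.052 without the first healthy kidney, and it also missed the threshold with no background correction (0.53) and with the authors' processed intensities (1.00). Ncf1 was at 0.71 in both organs and passed in the lung (limma, adjusted p = 0.041) but not in the kidney (limma, adjusted p = 0.061), and the lung call ended without any of 5 arrays. Another list held 7 tested genes, for other immunoglobulin receptors and for B2m, the partner of Fcgrt. In the kidney 3 rose and 2 fell and in the lung 0 rose and 5 fell, beside the same shares of all genes. Without UUO kidney replicate 2 the kidney counts were 2 and 1. Fcmr, the IgM receptor of lymphocytes, rose by at least 1.70-fold in the UUO kidneys and fell by 2.53 ± 0.16 in the bleomycin lungs (limma, adjusted p = 0.0006 and 1.1e-05). B2m rose by 1.19 ± 0.22 in the kidney (limma, adjusted p = 0.0020). Fcer2a, a low-affinity IgE receptor of B cells, fell in the kidney to below background, by at least 1.57-fold, and by 1.12 ± 0.20 in the lung, where the B cell gene Fcrla fell by 1.54 ± 0.26 (limma, adjusted p = 0.0043, 0.0015 and 0.0014).

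**Figure D5:**
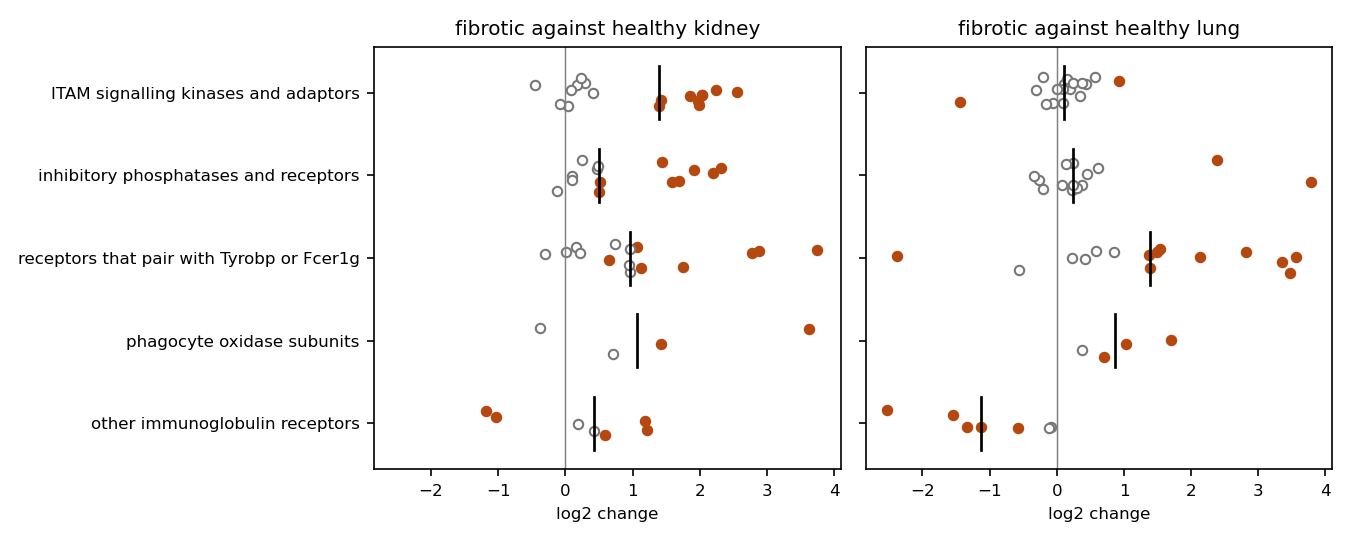
Log2 change of every tested gene of 5 lists of genes around the receptors, in kidney (left) and lung (right); filled points passed an adjusted p of 0.05, open points did not, and bars are list medians. The ITAM signalling genes have a fitted median of 1.39 in the kidney and 0.11 in the lung.

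Markers of the cell types that the organs can hold were counted beside these levels. Of all genes, 23.2% rose and 15.6% fell in the kidney, and 18.9% rose and 18.9% fell in the lung. Nothing is read from marker counts near these shares. Of 21 macrophage and monocyte markers, 18 rose and 1 fell in the kidney. In the lung 11 of them rose and 1 fell, with 10 to 17 rising over the alternatives. Their summed linear level was 3714 to 4623 in healthy kidneys, 28598 to 30062 in UUO kidneys, 52127 to 54303 in healthy lungs and 49195 to 68261 in bleomycin lungs. Itgam, an integrin of myeloid cells, was not above background in any kidney array. Of 7 markers of all leucocytes, 7 rose in the kidney, and 3 rose and 1 fell in the lung, where 2 to 5 rose over the alternatives. Of 11 neutrophil markers, 1 rose in the kidney and 3 in the lung, and S100a8 was at 6.79 and 12.19 in the 2 UUO kidneys. Over the alternatives 0 to 6 neutrophil markers rose in the kidney, with 6 without UUO kidney replicate 1. Of 7 alveolar macrophage markers, 0 rose and 1 fell in the kidney and 2 rose in the lung. Of 13 endothelial markers, 7 rose and 1 fell in the kidney and 8 fell in the lung; in the kidney 3 to 10 rose over the alternatives, with 4 each without healthy kidney replicate 1 or 2. T and natural killer cell markers rose in the kidney (5 of 8, with 1 and 3 without UUO kidney replicates 1 and 2, and 0 with the authors' processed intensities) and fell in the lung (7 of 8), and 5 of 6 B and plasma cell markers fell in the lung. Of 5 red cell markers, 5 fell in the lung, with a median log2 change of -5.14, and 0 rose and 2 fell in the kidney. The summed level of these 5 was 89901 to 92118 in healthy lungs and 2069 to 3610 in bleomycin lungs. In the kidney it was 42687 to 67412 in healthy mice and 20534 to 40792 after UUO. In the lung this difference coincides with the disease groups. Of 9 proximal tubule markers, 5 fell in the kidney, with 2 to 7 over the alternatives, and 0 rose or fell in the lung. Their summed level was 89003 to 95426 in healthy kidneys and 32389 to 63816 in UUO kidneys. Of 9 lung epithelium markers, 4 rose in the kidney, with 4 to 6 over the alternatives, and 2 fell in the lung. Of 4 podocyte markers, 1 rose in the kidney and 1 fell in the lung. Of 6 mast cell and basophil markers, 2 rose in the kidney. The part of these cell types, red cells included, in the receptor levels was not tested.

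The members were also set against 3 leucocyte genes on the same arrays: Csf1r, the growth factor receptor of macrophages, Adgre1, a surface receptor gene of macrophages, and Lcp1, a cytoskeletal gene of all leucocytes. The log2 values, relative to the organ's healthy mean, depended on the gene used. Fcgr3 was higher in the UUO kidneys by 3.22, 1.69 and 3.63 relative to Csf1r, Adgre1 and Lcp1 in turn, and in the bleomycin lungs by 2.46, 1.20 and 1.55. Fcgr2b was lower on average in the UUO kidneys, at -0.81, -2.34 and -0.40, and higher in the bleomycin lungs, at 3.36, 2.10 and 2.45. Fcgr4 was at 2.14, 0.62 and 2.55 in the kidneys and at 0.85, -0.40 and -0.05 in the lungs, where the sign depended on the gene. Tyrobp was at 2.34, 0.81 and 2.75 in the kidneys and at 1.78, 0.52 and 0.87 in the lungs. Fcgr1, read at background in healthy kidneys, was at 1.21, -0.31 and 1.63 in the kidneys and at 1.59, 0.33 and 0.69 in the lungs. Relative to Adgre1 its scarred and healthy arrays overlapped in both organs, and relative to Lcp1 in the lung. Fcgrt was at -0.66, -2.19 and -0.25 in the kidneys and at -0.60, -1.85 and -1.50 in the lungs. In the kidney, scarred and healthy arrays also overlapped for Fcgr2b and Fcgrt relative to Lcp1 and for Fcgr4 relative to Adgre1. In the lung they also overlapped for Fcgr4 relative to Adgre1 and Lcp1 and for Tyrobp relative to Adgre1. Adgre1 itself was not above background in healthy kidney replicate 1. Fcrls was higher in the UUO kidneys by at least 3.48, 1.96 and 3.90 and lower in the bleomycin lungs, at -2.25, -3.51 and -3.15.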

How the data were processed

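Biotin-labelled cRNA from whole kidney and lung was hybridised to Illumina bead arrays, 1 per organ. Per the submitters' processing notes the software was GenomeStudio 5.0. The deposited table holds a raw intensity and a detection p-value, which the authors' software computed against the array's negative controls, for each of 45281 probes on 11 arrays. The authors also deposited processed intensities, which fell within 0.109 of a line fitted to the raw values of the same array, so they are linear, background-subtracted, scaled per array and not centred on genes. Their medians were 28.4, 28.8 and 23.4 in healthy kidney, 16.8 and 16.2 in UUO kidney, 10.9, 10.9 and 10.6 in healthy lung and 18.6, 24.7 and 16.4 in bleomycin lung.

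From the deposited raw intensities, log2 levels were computed with neqc in limma 3.58.1 (R 4.3.3), an offset of 16 and control probes estimated from the detection values. A probe was kept if it had 1 symbol and was detected (p under 0.05) on 2 or more arrays (20641 probes), and the brightest kept probe stood for a gene. All 11 arrays entered a limma model of the 4 group means, with Benjamini-Hochberg adjustment over all 12865 genes within a contrast and a threshold of 0.05. Adjusted p-values in the text are from this fit unless an alternative is named beside them. They rest on the spread between arrays within the groups, pooled over the 4 groups and moderated over all genes. Each organ counted as a separate array, so the healthy organs entered unpaired. The number of arrays, 2 for the UUO kidney, limits the precision. Where no array of the dimmer group was above background, the fold is written "at least N-fold": there each dim array counted at its lowest detected signal, or at the probe's reading if higher.

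The genes of the set, the pathway and marker lists and the tests were chosen with earlier results of these data known, so no p-value is given for a member in a comparison that involves fibrosis, although tests of the difference between the organs had been planned. Named list genes are the 3 with the smallest p of each pathway list in each organ, and nearest genes are the 3 with the highest Pearson r per member. The p-values of named list genes are not independent of the choice of list and of gene, and are given as a description. Markers were named by a fixed list. Gene symbols are those of the platform annotation, carried by 34885 probes; 10378 had none and 18 several. The fit was tested on simulated data. Healthy kidney and lung with the same replicate number come from 1 mouse by title. The sample descriptions number the mice separately, and the titles were followed here. Deviations from the group means correlated between the organs of a mouse at -0.07, 0.01 and -0.11. Slides and scan dates were not given in the sources, so no batch was tested. Promoter sequences are from RefSeq, GRCm38.p6, and were matched by symbol for 7 of the 8 genes, all but Tyrobp. Alternatives varied background correction, scaling, offset, probe filter, probe choice, the arrays fitted, a mouse block and each array left out; those on the gene lists were chosen after seeing the data.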

Additional observations from a re-analysis of the deposited data

Results flagged for a closer look

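Flagged here are 4 genes for which the change in the kidney and the change in the lung stood apart. Fcgr2b (-3.33) and Fcgr3 (1.59) stood apart as well. They were not flagged, because earlier results had singled them out and the threshold rule passed over such genes. Fcrls, also singled out, was flagged for its opposite directions. For Fcgr4, Tyrobp and Fcgrt the difference passed the threshold of the limma fit over all genes, but the genes were chosen on the same values, so it is given as a description. Fcgr4 had the larger kidney change by 2.12 on the log2 scale, and between 1.41 and 2.44 under the alternatives run. For Tyrobp the difference was 1.39, and it missed the threshold with no background correction (0.29), with the authors' processed intensities (0.43), with an offset of 50 (0.78) and without UUO kidney replicate 2 (1.12). For Fcgrt it was 0.76, and it missed the threshold without any 1 of 9 of the 11 arrays and with a common median (0.45), and turned to -0.31 with the authors' processed intensities. Fcrls was higher in both UUO kidneys than in every healthy kidney and lower in all 3 bleomycin lungs than in every healthy lung. Its difference was 7.38 as fitted and at least 6.56 with the healthy kidneys, where it was not above background, at their lowest detected signal; it was not tested.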

How the results depend on the processing

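In all 64 counts made under the alternatives, the number of genes called in a comparison stayed within 1.5 times its value. The counts ran from 3734 to 5446 in the kidney and 3834 to 6689 in the lung. For the difference between the organs they ran from 4436 to 6946, and between the healthy organs from 7094 to 8481. Of 448 alternative values for the members, 422 kept their direction and side of the threshold, 16 lost the call, 1 gained it and 9 turned. The cause of these shifts was not tested. With a common median in place of quantile normalisation, Fcgrt was at 0.013 in the lung and 0.086 between the healthy organs. With the authors' processed intensities, which moved the median of all genes to -0.24 in the kidney, 0.48 in the lung, -0.77 for the difference between them and 0.40 between the healthy organs, Fcgr2b was at -0.055 in the kidney; Fcgrt was at -0.11 in the kidney, 0.19 in the lung, -0.31 for the difference and 0.62 between the healthy organs (limma, adjusted p = 0.013); and Fcgr1 was at -0.65 for the difference and 0.29 between the healthy organs. The lost calls all concerned the difference between the organs, for Fcgrt, Tyrobp and Fcgr3, whose values are given above. Without bleomycin lung replicate 3 Fcgrt gained a call in the lung, at -0.55. No array left out moved a member's fold by over 1.46 times.

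The replicate block, with the 2 healthy organs of a mouse paired, changed no call of a member. As a random block (consensus correlation -0.025) it gave 4988 genes in the kidney, 4865 in the lung, 5126 for the difference and 7861 between the healthy organs, and as a fixed block over the 6 healthy arrays 7627, beside 4987, 4863, 5150 and 7928 without it. Of 95 counts of pathway list genes under added alternatives, 14 moved by over 1.5 times. With 2 or 3 arrays a group and dim healthy kidney probes, Fcgr1, Fcrls and Tyrobp in that group rest on readings at or near background, and Fcer1g could not be measured. Fcrls also read near background in bleomycin lung replicates 1 and 2.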
